A study of Drosophila melanogaster with 38 samples.

Results

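Genes of lipid storage, lipases and lipoproteins were followed in 40-day-old Canton-S Drosophila females. The set was defined as 10 genes by name: the lipid droplet genes Lsd-1, Lsd-2 and Jabba, the lipase genes bmm, Hsl, Lip3, Lip4 and mag, and the lipoprotein genes apolpp and Mtp. A gene entered the tests through every probe set named for it whose mean log2 expression was at least 6 over 36 arrays. This left 8 genes with 9 probe sets, of 7826 named genes and 9420 probe sets tested in all. Jabba was read by 2 probe sets and each other gene by 1. No probe set was named for Hsl in the annotation used here. Lip3 lay below the limit with a mean of 4.27, and the nearest member above it was Jabba probe set 1640505_at with 9.16.

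The cohorts shared age, sex, strain and tissue and differed in diet. RF flies were kept on restricted food, with 50 g/L sucrose and 50 g/L yeast. SF flies were switched on day 40 to the restricted food after an adult life on control food until then. CF flies stayed on control food, with 150 g/L sucrose and 150 g/L yeast. RNA of head and thorax, pooled from at least 75 females per sample, was hybridised to 1 Affymetrix array for each cohort at each of 12 time points between 2 and 72 hours after the switch, and RF and CF were also sampled at 0 h. There was no replicate array at a time point, so the p-values measure how a difference varied over the 12 collections. Since 3 cohorts gave 3 comparisons, the comparisons share arrays.

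Flies store fat as triglyceride in lipid droplets, mainly in the fat body. Perilipins coat the droplets and govern access to them, and lipases such as bmm release the fatty acids. Other lipases are secreted into the gut or work in lysosomes at acid pH, and lipids travel between organs on lipophorin, a particle that is built on apolpp with the help of Mtp.

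Across the 3 comparisons 4 of the 8 genes were called, each through 1 probe set, while 8633 of all 9420 probe sets were called in none. These genes were mag and bmm between RF and CF, Lsd-1 and Jabba between SF and CF, and Jabba and mag between SF and RF. Between RF and CF 2 of 9 probe sets were called, both lower in RF, and 7.42% of all 9420 probe sets were called. Between SF and CF 2 of 9 were called, both lower in SF, against 1.8% of all probe sets. Between SF and RF 1 of 9 was higher in SF and 1 lower, against 1.95% of all. The set was chosen with earlier results of these arrays known, so these shares are descriptions. Estimates were below 0 for 6 of 9 probe sets in RF minus CF, with a median of -0.14, where the median of all probe sets was -0.0091. In SF minus CF 9 of 9 were below 0, with a median of -0.14 against 0.0088 for all, and in SF minus RF 5 of 9 were, with a median of -0.05 against 0.0081. A call here is an adjusted p under 0.05 from limma on 12 differences between arrays of the same time point. Differences are on the log2 scale with their standard error (SE). The exact test by sign flips tests the mean of the 12 differences, not the count of hours given beside it.

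**Figure D1:**
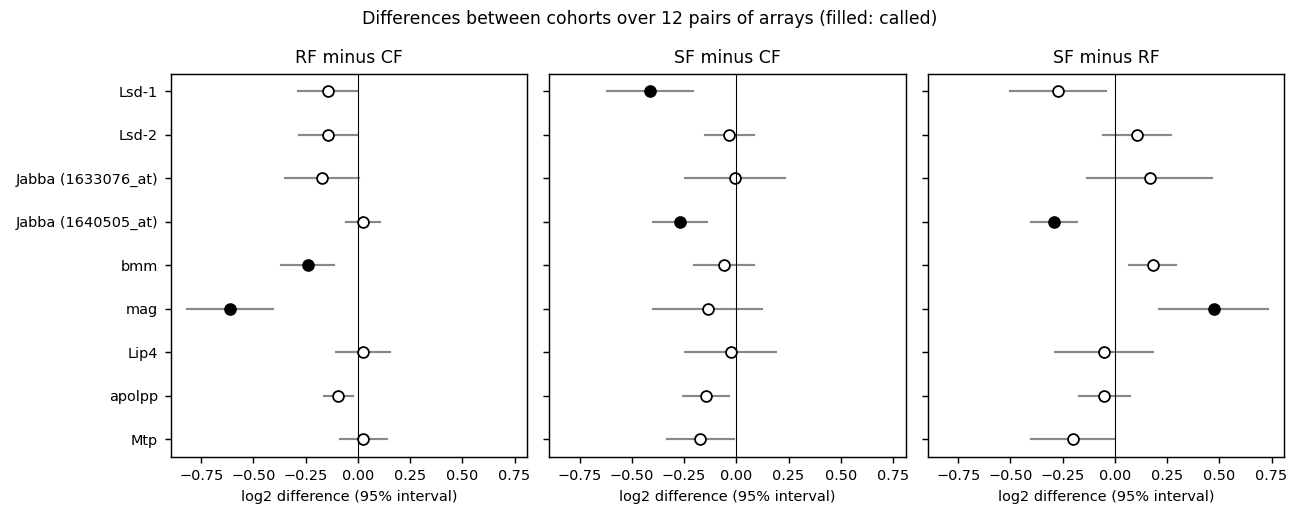
Log2 differences between cohorts (horizontal axis, points with 95% intervals) for the 9 probe sets, in 1 panel each for RF minus CF, SF minus CF and SF minus RF; filled points were called. mag lies lowest in RF minus CF and highest in SF minus RF, and Lsd-1 lies lowest in SF minus CF.

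Beside these genes, the arrays varied most with transcripts of the eggshell, which belong to the ovary, an organ outside head and thorax. The mean of 12 eggshell genes ran from 10.1 to 12.5 in RF, from 10.5 to 12.9 in SF and from 10.1 to 12.7 in CF, and the first principal component, with 45.9% of the variance, followed it with an absolute r of 0.899. Of the head and thorax markers with a named probe set, 3 of 3 neuron genes, 2 of 2 muscle genes and 1 of 1 photoreceptor gene were above the limit. The neuron gene brp passed through a probe set with a mean of 6.20, and its others, at 5.35, 4.14 and 3.98, lay below. Both muscle genes were called between RF and CF, where 7.42% of all probe sets were. The flight muscle actin gene Act88F differed by -0.75 (adjusted p = 0.00875) and the troponin T gene up by 0.47 (adjusted p = 0.0224). Act88F was also higher in SF than RF, at 1.03 (adjusted p = 0.0197). The part of muscle RNA in the differences of the lipid genes was not tested. The mean of 8 midgut genes was 12.0 in RF, 11.9 in SF and 11.8 in CF. That of the yolk protein genes, listed here as fat body markers, was 14.8 in RF, 14.8 in SF and 14.9 in CF. The part of ovary RNA in the yolk mean was not tested. In bulk RNA of this kind, fewer cells of a type and less RNA per cell cannot be told apart.

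The perilipin gene Lsd-1 encodes the droplet protein that recruits lipases when fat is mobilised. Its log2 expression in SF ran from 10.78 to 11.86 with a median of 11.15. In CF it ran from 11.25 to 12.30 with a median of 11.55. The ranges overlapped, but 8 of 12 SF arrays lay below every CF array. The SF minus CF difference was -0.41 (SE 0.097, adjusted p = 0.0288, limma), a ratio of 0.75. SF was the lower of the 2 arrays at 11 of 12 hours. The mean difference had p = 0.00146 (two-sided exact test by sign flips).

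The gap between SF and CF in Lsd-1 was not even over time. At 2 h the difference was 0.12, with 11.43 in SF and 11.32 in CF. At 6 h it was -1.16, with 11.14 in SF and 12.30 in CF, and at 8 h SF stood at 10.86 and CF at 11.87. These 2 time points hold the deepest differences, at hours when RF and CF flies both stood high. At 2 to 18 h the mean difference was -0.53 and at 24 to 72 h it was -0.30, and the change between these spans was 0.24 (SE 0.19, adjusted p = 0.616). The SF array at 8 h also had the highest eggshell mean of all arrays, 12.86, and that at 6 h had 12.23, while the CF arrays had 10.98 at 8 h and 11.26 at 6 h. With the eggshell mean as a covariate SF minus CF was -0.36 (adjusted p = 0.016). The call was lost without 18, 32, 40 or 48 h (adjusted p up to 0.0623), in an unpaired fit (adjusted p = 0.0984) and after median-centring (adjusted p = 0.0529). It was also lost by the study's paired t-test with Benjamini-Hochberg, with each comparison adjusted on its own and at 2 to 18 h alone. The fit at 2 to 18 h called 0 of all 9420 probe sets in SF versus CF, so its loss says little of Lsd-1.

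RF was not called against CF in Lsd-1. RF arrays ran from 10.65 to 12.33 with a median of 11.39, and RF minus CF was -0.14 (95% interval -0.29 to 0.0028, adjusted p = 0.348). SF minus RF was -0.27 (95% interval -0.50 to -0.041, adjusted p = 0.236). Of the fat body marker genes 2 of 4 were lower in SF than CF, Yp2 (-0.17) and Lsp2 (-2.17). In that comparison 1.8% of all probe sets were called. Over 36 arrays Lsd-1 followed the yolk mean with r = 0.62. The part of fat body RNA in the Lsd-1 difference was not tested.

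Lsd-2, the other perilipin, known for shielding stored fat, was not called in any comparison. It ran from 11.18 to 11.86 in RF with a median of 11.43, from 11.42 to 11.95 in SF with a median of 11.57, and from 11.46 to 11.83 in CF with a median of 11.65. Of the RF arrays 7 of 12 lay below every CF array. RF minus CF was -0.14 (95% interval -0.28 to -0.0044, adjusted p = 0.319), SF minus CF was -0.035 (95% interval -0.15 to 0.083, adjusted p = 0.784) and SF minus RF was 0.11 (95% interval -0.055 to 0.27, adjusted p = 0.541). The RF minus CF difference averaged -0.035 at 2 to 18 h and -0.25 at 24 to 72 h, a change of -0.22 (SE 0.12, adjusted p = 0.456).

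**Figure D2:**
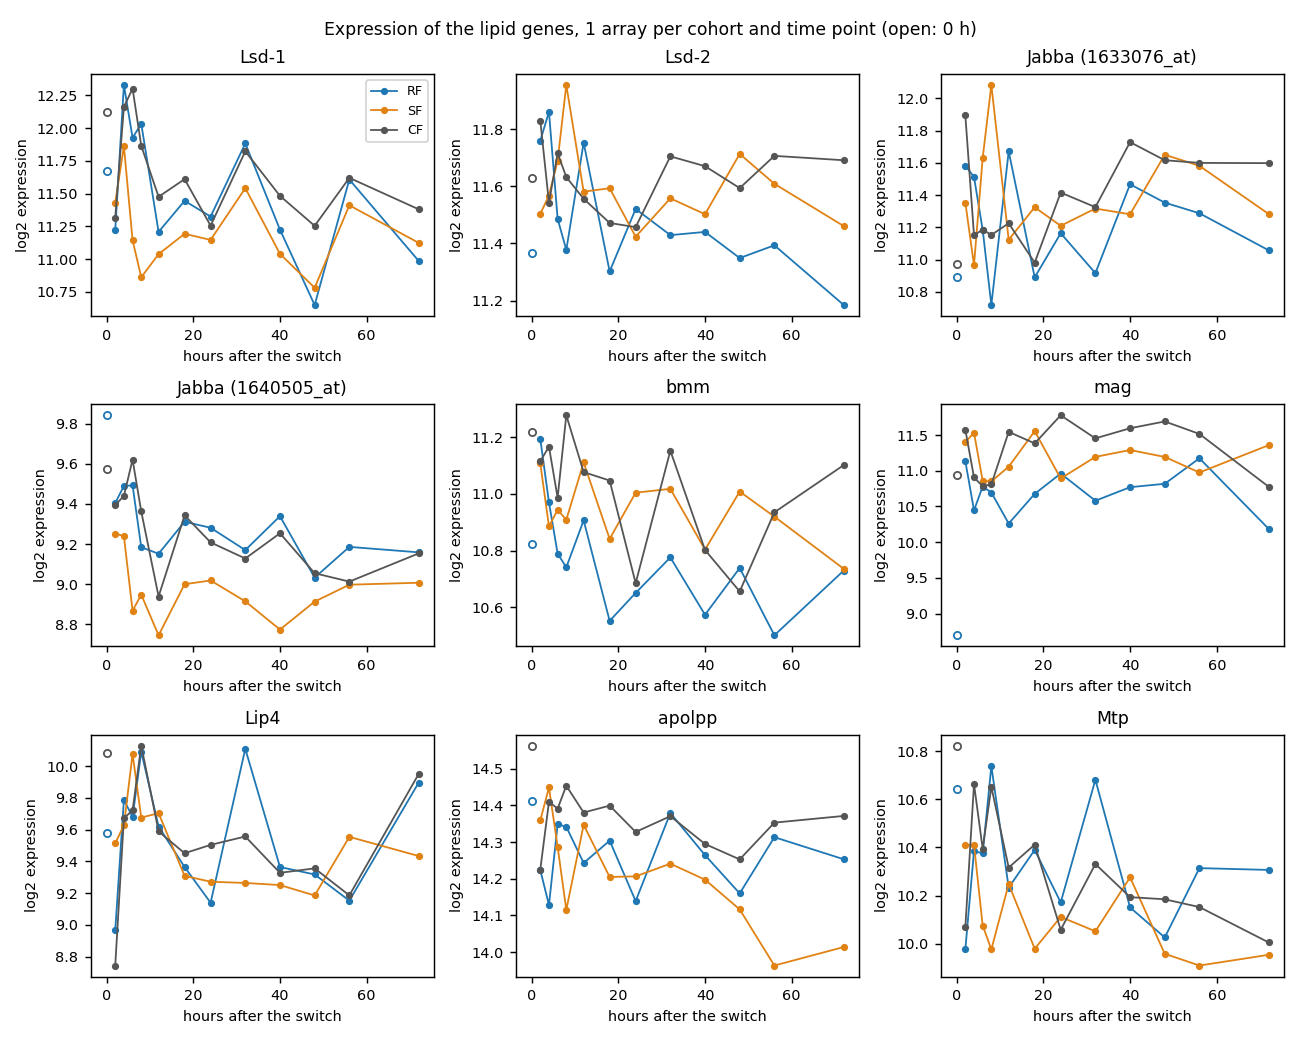
Log2 expression (vertical axes) of the 9 probe sets against hours after the switch, with 1 array per cohort and time point for RF, SF and CF, and open points for the RF and CF arrays at 0 h. Jabba probe set 1640505_at in SF lies below RF and CF at every time point, and mag in RF lies below CF at every time point.

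Jabba encodes a droplet protein that holds histones on lipid droplets in the egg and embryo. Its 2 probe sets gave different pictures. Probe set 1640505_at ran from 8.75 to 9.25 in SF with a median of 8.97. It ran from 8.94 to 9.62 in CF with a median of 9.23. SF was lower than CF at 12 of 12 time points, although the ranges overlapped. The SF minus CF difference was -0.27 (SE 0.060, adjusted p = 0.0223), a ratio of 0.83 (two-sided exact test by sign flips, p = 4.88e-04, the smallest it can give).

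The same probe set was lower in SF than in RF. RF arrays ran from 9.03 to 9.49 with a median of 9.23, and 10 of 12 SF arrays lay below every RF array. SF minus RF was -0.29 (SE 0.051, adjusted p = 0.00544), with SF below RF at 12 of 12 hours (two-sided exact test by sign flips, p = 4.88e-04). RF minus CF was 0.024 (95% interval -0.056 to 0.10, adjusted p = 0.777), with 8 of 12 differences above 0. Of the 9420 probe sets, 9 shared this arrangement of calls, with SF apart from both steady diets and no call between those. The difference between SF and CF was largest at 6 h, -0.75, with 8.87 in SF and 9.62 in CF. It lost its call without 18 or 40 h (adjusted p up to 0.0562), after median-centring of the arrays (adjusted p = 0.0546) and with each comparison adjusted on its own. The SF versus RF call held when any 1 time point was left out (adjusted p up to 0.0152). Both calls were lost at 2 to 18 h or 24 to 72 h alone. At 2 to 18 h 0 of all probe sets were called in SF versus CF and 1 in SF versus RF.

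Probe set 1633076_at of Jabba was not called in any comparison. It ran from 10.72 to 11.67 in RF with a median of 11.24, from 10.97 to 12.08 in SF with a median of 11.32, and from 10.98 to 11.89 in CF with a median of 11.37. SF minus CF was -0.0061 (95% interval -0.24 to 0.23, adjusted p = 0.984), against -0.27 for 1640505_at. RF minus CF was -0.17 (95% interval -0.35 to 0.0045, adjusted p = 0.353). That difference averaged -0.0052 at 2 to 18 h and -0.34 at 24 to 72 h, a change of -0.33 (SE 0.14, p = 0.0349, adjusted p = 0.375). On the 6 later time points alone RF minus CF was called (-0.34, adjusted p = 0.0115). That fit called 1723 of all probe sets, against 699 over the 12 time points. SF minus RF was 0.17 (95% interval -0.13 to 0.47, adjusted p = 0.604), and its largest difference was 1.36 at 8 h, with 12.08 in SF and 10.72 in RF.

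Over the 36 arrays probe set 1633076_at followed the eggshell mean with r = 0.893, and probe set 1640505_at had r = -0.229. The points share normalization and collections, and the coefficients are descriptions. Between the probe sets themselves r was -0.168. Which transcripts each probe set reads was not given in the sources used here. The part of eggshell RNA in the differences of 1633076_at was not tested. Lsd-2 was the other member with a positive coefficient above 0.6 (r = 0.606). Mtp (r = -0.694), apolpp (r = -0.547), Lip4 (r = -0.429) and Lsd-1 (r = -0.413) ran the other way.

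**Figure D3:**
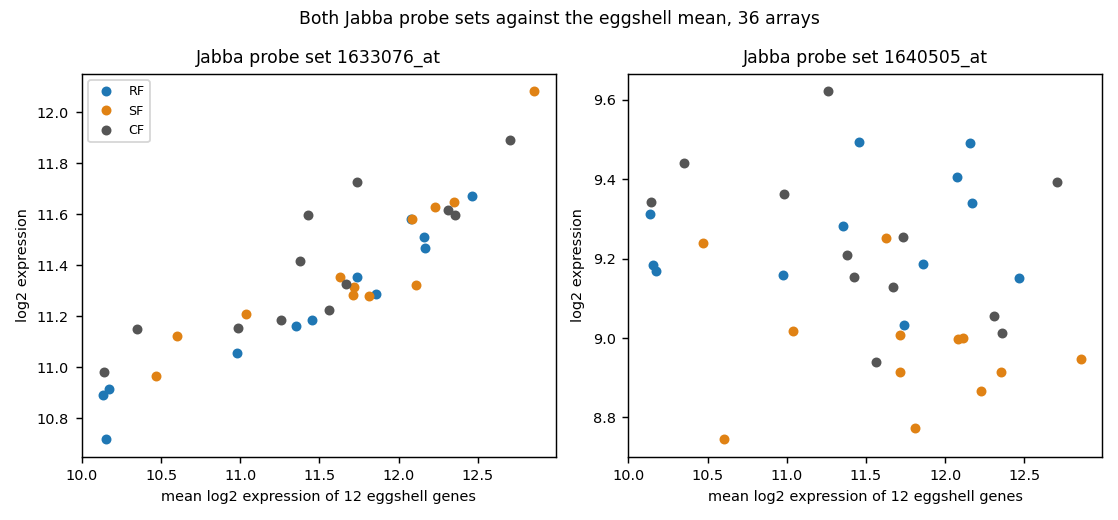
Log2 expression of Jabba probe sets 1633076_at (left) and 1640505_at (right) against the mean log2 expression of 12 eggshell genes, 1 point per array for RF, SF and CF (36 arrays). The left panel shows r = 0.893 and the right panel r = -0.229, and on the right the SF median was 8.97, against 9.23 in RF and 9.23 in CF.

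bmm, or brummer, is the orthologue of mammalian adipose triglyceride lipase and starts the breakdown of stored fat. It ran from 10.50 to 11.19 in RF with a median of 10.74. In CF it ran from 10.66 to 11.28 with a median of 11.06, and 4 of 12 RF arrays lay below every CF array. The difference between RF and CF was -0.24 (SE 0.059, adjusted p = 0.0384), a ratio of 0.847. The mean difference had p = 0.00342 (two-sided exact test by sign flips). RF was the lower at 10 of 12 hours. The exceptions were 2 h, with 11.19 in RF and 11.12 in CF, and 48 h, with 10.74 in RF and 10.66 in CF. The deepest difference was -0.54 at 8 h, with 10.74 in RF and 11.28 in CF. The call was near the threshold, and it was lost when 6, 8, 18, 32, 40, 56 or 72 h was left out (adjusted p between 0.0648 and 0.0896). It was lost in an unpaired fit (adjusted p = 0.13) and without the filter on dim probe sets (adjusted p = 0.0607). The study's paired t-test with Benjamini-Hochberg and the fits at 2 to 18 h or 24 to 72 h alone lost it too. At 2 to 18 h that fit called 17 of all 9420 probe sets.

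The SF median of bmm lay between those of the steady diets, but single hours did not all do so. At 12, 24, 40 and 48 h SF stood above both diets, and at 2 and 4 h below both. SF arrays ran from 10.74 to 11.11 with a median of 10.93. SF minus CF was -0.060 (95% interval -0.20 to 0.086, adjusted p = 0.70) and SF minus RF was 0.18 (95% interval 0.070 to 0.29, adjusted p = 0.077), positive at 10 of 12 time points. Of the fat body marker genes, 3 of 4 were lower in RF than CF, where 7.42% of all probe sets were called. These were the yolk protein genes Yp2 (-0.15) and Yp3 (-0.12) and the storage protein gene Lsp2 (-3.17). Over 36 arrays bmm followed the yolk mean with r = 0.439. The part of fat body RNA in the bmm difference was not tested.

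mag, or magro, encodes a lipase that is secreted into the gut and takes part in the digestion of dietary fat and the handling of sterols. It showed the largest differences of the set between RF and CF. RF arrays ran from 10.18 to 11.18 with a median of 10.73. CF arrays ran from 10.78 to 11.78 with a median of 11.49. Of the 12 RF arrays 7 lay below every CF array, and 8 CF arrays lay above every RF array. The difference between RF and CF was -0.61 (SE 0.096, adjusted p = 0.00256), a ratio of 0.655, with RF below CF at 12 of 12 hours (two-sided exact test by sign flips, p = 4.88e-04).

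The size of the mag difference varied with time. It was deepest at 12 h, -1.29, with 10.26 in RF and 11.55 in CF. At 6 h it was close to 0 (-0.0047), with 10.78 in each cohort, and at 8 h it was -0.11. It averaged -0.50 at 2 to 18 h and -0.72 at 24 to 72 h, a change of -0.22 (SE 0.19, adjusted p = 0.652). The call held when any 1 time point was left out (adjusted p up to 0.00834) and was lost at 2 to 18 h alone (adjusted p = 0.571). That fit called 17 of all 9420 probe sets.

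mag was higher in SF than in RF. SF arrays ran from 10.85 to 11.56 with a median of 11.19, and 7 of 12 SF arrays lay above every RF array. SF minus RF was 0.47 (SE 0.12, adjusted p = 0.0472), a ratio of 1.39. The mean difference had p = 0.00488 (two-sided exact test by sign flips). SF was above RF at 10 of 12 hours, the exceptions being 24 h and 56 h. The call was lost when any of 10 time points was left out (adjusted p up to 0.11), and it held without 24 h or 56 h. It was also lost in 7 of 11 other settings, among them median-centring (adjusted p = 0.0772) and no filter on dim probe sets (adjusted p = 0.0687). The rest were the study's paired t-test with Benjamini-Hochberg or with Storey's q values, and each comparison adjusted on its own. The call was lost at 2 to 18 h or 24 to 72 h alone as well. At 2 to 18 h 1 of all 9420 probe sets was called in SF versus RF. SF minus CF was -0.14 (95% interval -0.40 to 0.13, adjusted p = 0.624), with a mean of 0.042 at 2 to 18 h and -0.32 at 24 to 72 h. That change of -0.36 had an SE of 0.23 (adjusted p = 0.529).

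Of 8 midgut marker genes 3 were higher in RF than CF, the serine protease genes Jon25Bii (0.92), Jon65Ai (0.76) and Jon66Ci (0.88). Another 2 were lower, the maltase genes Mal-A1 (-0.33) and Mal-A3 (-0.73). Of all probe sets 7.42% were called in this comparison. The coefficient of mag with the midgut mean over 36 arrays was -0.014, and the part of midgut RNA in the mag difference was not tested.

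**Figure D4:**
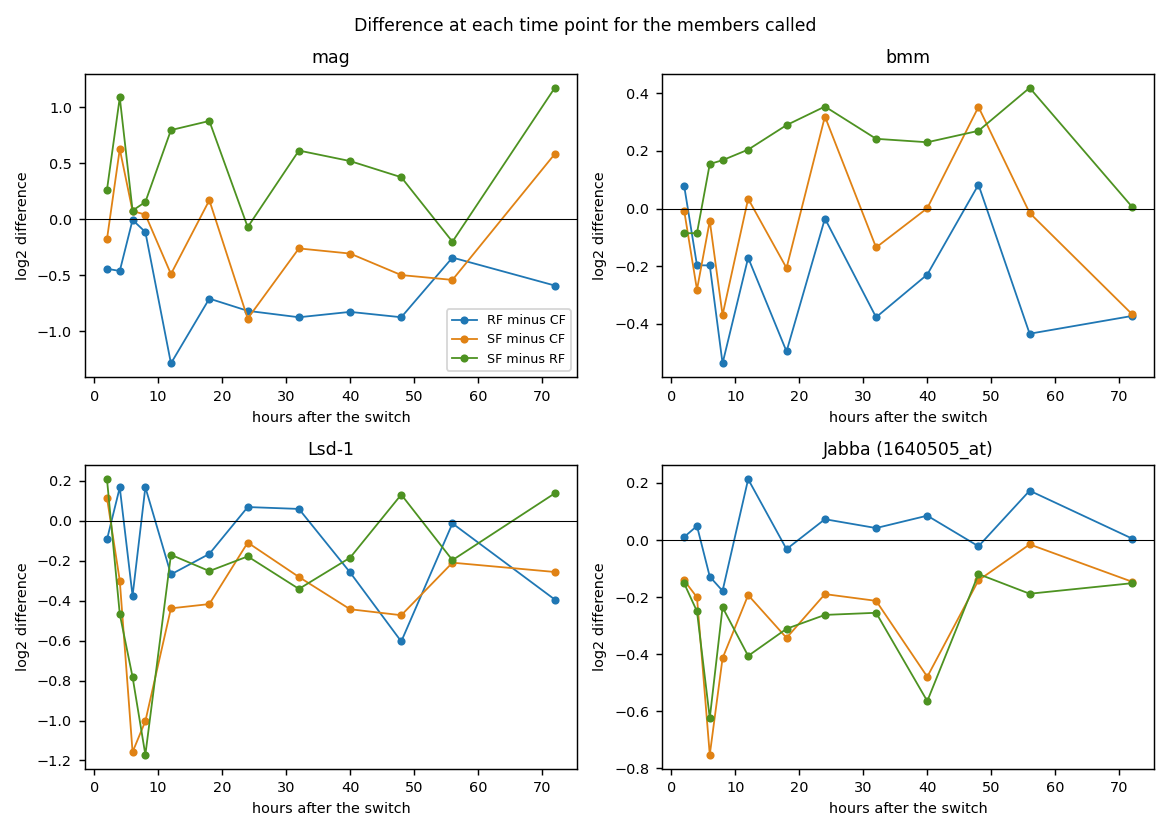
Log2 difference (vertical axes) at each of 12 time points after the switch (horizontal axes, hours) for mag, bmm, Lsd-1 and Jabba probe set 1640505_at, with lines for RF minus CF, SF minus CF and SF minus RF. The line of RF minus CF is below 0 throughout for mag, and those of SF minus CF and SF minus RF are below 0 throughout for Jabba.

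Lip4, a member of the acid lipase family, was not called between any cohorts. It ran from 8.97 to 10.11 in RF with a median of 9.49, from 9.19 to 10.08 in SF with a median of 9.47, and from 8.74 to 10.13 in CF with a median of 9.53. RF minus CF was 0.025 (95% interval -0.11 to 0.16, adjusted p = 0.864), SF minus CF was -0.027 (95% interval -0.24 to 0.19, adjusted p = 0.917) and SF minus RF was -0.052 (95% interval -0.29 to 0.18, adjusted p = 0.841). Lip3, of the same family, ran from 3.78 to 4.71 in RF, from 4.13 to 4.86 in SF and from 3.97 to 4.69 in CF. It lay below the limit for the tests and was not tested.

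apolpp encodes the protein scaffold of lipophorin, the main lipid carrier of the blood. It ran from 14.13 to 14.38 in RF with a median of 14.26, from 13.96 to 14.45 in SF with a median of 14.21, and from 14.22 to 14.45 in CF with a median of 14.37. RF minus CF was -0.094 (95% interval -0.16 to -0.026, adjusted p = 0.15), with RF the lower at 11 of 12 hours. The mean of these differences had p = 0.00146 (two-sided exact test by sign flips). SF minus CF was -0.14 (95% interval -0.25 to -0.035, adjusted p = 0.171), with SF the lower at 10 of 12. The mean of these differences had p = 0.0107 (two-sided exact test by sign flips). Neither RF minus CF nor SF minus CF passed the adjustment over all probe sets. The coefficient of apolpp with the yolk mean over 36 arrays was 0.714. The lowest SF values were 13.96 at 56 h and 14.01 at 72 h, against 14.35 and 14.37 in CF. SF minus RF was -0.05 (95% interval -0.17 to 0.072, adjusted p = 0.701).

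Mtp encodes the transfer protein that loads lipid onto apolpp in the endoplasmic reticulum. It ran from 9.98 to 10.74 in RF with a median of 10.31, from 9.91 to 10.41 in SF with a median of 10.06, and from 10.01 to 10.66 in CF with a median of 10.26. SF minus CF was -0.17 (95% interval -0.33 to -0.011, adjusted p = 0.294), with its lowest point of -0.68 at 8 h. SF minus RF was -0.20 (95% interval -0.40 to 0.0014, adjusted p = 0.341) and RF minus CF was 0.027 (95% interval -0.088 to 0.14, adjusted p = 0.833). The exact sign-flip tests were 27 in all, for 9 probe sets in 3 comparisons, and 11 had an unadjusted p under 0.05.

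No member was called for a change in its diet difference between 2 to 18 h and 24 to 72 h. The share of all probe sets called was 0% in RF minus CF, 0% in SF minus CF and 0% in SF minus RF, although 2043, 1334 and 193 probe sets had an unadjusted p under 0.05 (limma). The smallest p of the set was that of Jabba probe set 1633076_at given above.

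Time of collection on the steady diets was another axis, since RF and CF flies were sampled together at each time point. Of the 9 probe sets 4 differed between the 12 time points in the 24 RF and CF arrays, Lsd-1 (adjusted p = 0.00481), Lip4 (adjusted p = 0.00535), Jabba 1640505_at (adjusted p = 0.018) and Mtp (adjusted p = 0.0319), and 18.4% of all probe sets did. Mtp lost its call with the eggshell mean as a covariate (adjusted p = 0.0827), with all 36 arrays (adjusted p = 0.512) and without 2, 8, 18 or 48 h (adjusted p up to 0.108), and Jabba 1640505_at lost it with all 36 arrays (adjusted p = 0.0506). Lsd-1 stood high at 4 h, with 12.33 in RF and 12.16 in CF, and at 6 h, with 11.93 in RF and 12.30 in CF. It stood low at 48 h, with 10.65 in RF and 11.25 in CF. A second high point came at 32 h, with 11.88 in RF and 11.82 in CF.

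Lip4 was lowest at 2 h in both diets, with 8.97 in RF and 8.74 in CF, and stood high at 8 h, with 10.09 in RF and 10.13 in CF. It stood high again at 72 h, with 9.90 in RF and 9.95 in CF. At 32 h the diets parted, with 10.11 in RF and 9.56 in CF. Mtp had its highest RF value at 8 h, 10.74, with 10.65 in CF, and its lowest at 2 h, 9.98, with 10.07 in CF. Jabba 1640505_at was higher at 6 h, with 9.49 in RF and 9.62 in CF, than at 48 h, with 9.03 in RF and 9.05 in CF.

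A wave of 24 hours was fitted to the same 24 arrays, since flies lived under 12 hours of light and 12 of dark. None of the 9 probe sets was called, against 1.26% of all probe sets (950 at an unadjusted p under 0.05, limma). Lsd-1 had the widest wave of the set, with an amplitude of 0.39 on the log2 scale and a fitted peak 7.89 h after the switch (adjusted p = 0.0868). It was called with the eggshell mean as a covariate (adjusted p = 0.0135), where Mtp was called too (adjusted p = 0.00511), with all 36 arrays (adjusted p = 0.047), and without 12 h (adjusted p = 0.0494) or 18 h (adjusted p = 0.014). Time of day, handling and the order of collection cannot be told apart in this design.

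The members varied together in 2 directions over the 36 arrays. After removal of the cohort means, Lsd-1 and Mtp had r = 0.676, apolpp and Mtp had r = 0.684, and Lip4 and Mtp had r = 0.554. Jabba 1633076_at and Lsd-2 had r = 0.704, and Jabba 1633076_at and Mtp had r = -0.701. The lipase genes Lip4 and mag had r = -0.644. These coefficients share arrays, normalization and the eggshell variation given above.

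**Figure D5:**
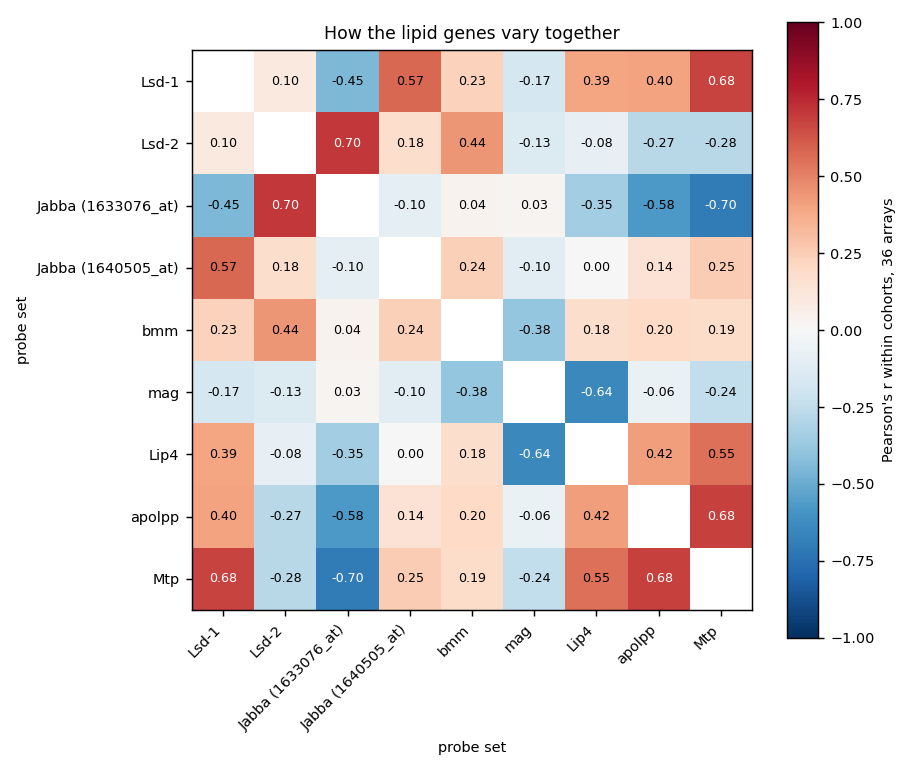
Pearson's r within cohorts over 36 arrays for each pair of the 9 probe sets (both axes, colour from -1 to 1). Mtp, apolpp, Lip4 and Lsd-1 have positive coefficients with each other, and Jabba 1633076_at has its highest coefficient with Lsd-2 (0.704).

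For each gene called, the genes most like it over the 36 arrays were ranked by r. bmm was closest to the mitochondrial carrier gene SCaMC (r = 0.752), then to the lipase gene CG5966 (r = 0.723) and CG42240 (r = 0.723). Lsd-1 was closest to CG13607 (r = 0.89), CG13360 (r = 0.883) and CG5773 (r = 0.875). Jabba 1640505_at was closest to Kyat (r = 0.75), the glycerol kinase gene Gk1 (r = 0.742) and CG17032 (r = 0.729). mag was closest to CG7025 (r = 0.849), Npc2f (r = 0.772), of the sterol-binding Npc2 family, and CG8997 (r = 0.771).

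Other genes of the same processes gave a wider view. Among 13 droplet and triglyceride synthesis genes with 15 probe sets, 1 probe set was lower in RF than CF (1 of 15, where 7.42% of all probe sets were called), a share near that of all probe sets. The gene lower in RF was Dgat2, an acyltransferase of triglyceride synthesis, at -0.74 (SE 0.079, adjusted p = 1.66e-04). None was called by limma in the other comparisons, where 0 in SF versus CF and 3 in SF versus RF had an unadjusted p under 0.05. Of all 9420 probe sets 859 had such a p in SF versus CF and 1166 in SF versus RF. Of 18 other acid lipase genes 4 were expressed above the limit. Between RF and CF 1 of the 4 was called, where 7.42% of all probe sets were. This was Lip2, lower in RF at -0.59 (SE 0.082, adjusted p = 0.00107). It differed by -0.45 in SF minus CF with no call, in a comparison where 2 of the 4 had an unadjusted p under 0.05. The same held for 859 of all 9420 probe sets there.

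Among 13 neutral lipase genes 1 was lower and 1 higher in RF than CF, where 7.42% of all probe sets were called. CG5966, of the pancreatic lipase family, was lower in RF at -0.99 (SE 0.11, adjusted p = 2.62e-04). Between SF and RF it was higher in SF at 0.64 (SE 0.099, adjusted p = 0.00248), the same arrangement of calls as mag. In that comparison 1.95% of all probe sets were called. CG10116 was higher in RF than CF at 0.22 (SE 0.040, adjusted p = 0.00639). No neutral lipase gene was called between SF and CF, against 1.8% of all probe sets. There 5 of the 13 had an unadjusted p under 0.05 (limma), as did 859 of all 9420 probe sets.

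Among 17 genes of lipoprotein receptors, lipid carriers and sterol transport, 3 were higher and 1 lower in RF than CF. These were the sterol-binding Npc2 genes Npc2h (0.36), Npc2g (0.31), Npc2b (0.25) and Npc2d (-0.63), with adjusted p from 0.00378 to 0.0221. In RF versus CF 7.42% of all probe sets were called. Between SF and RF Npc2h (-0.51) and Npc2g (-0.29) were lower in SF, where 1.95% of all probe sets were called. Between SF and CF the lipophorin receptor gene LpR1 was higher in SF at 0.17 (SE 0.044, adjusted p = 0.0497). There 1.8% of all probe sets were called. LpR1 differed by a like 0.18 in RF minus CF with no call (adjusted p = 0.119), and by -0.0086 in SF minus RF.

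Among 11 regulator genes with 12 probe sets 1 was lower in RF than CF, Hr96, at -0.31 (SE 0.059, adjusted p = 0.00824). A count of 1 in 12 is near the 7.42% of all probe sets called. Hr96 encodes a nuclear receptor known to act on mag. Between SF and CF 1 was lower in SF, the transcription factor gene sug at -0.31 (SE 0.075, adjusted p = 0.0335). There 1.8% of all probe sets were called. None of the 11 was called between SF and RF, where 3 probe sets had an unadjusted p under 0.05 (limma), against 1166 of all 9420. Akh, the hormone gene that mobilises fat, differed by 0.21 in RF minus CF, -0.10 in SF minus CF and -0.31 in SF minus RF, with no call.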

How the data were processed

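Head and thorax RNA of RF, SF and CF females was hybridised to Affymetrix Drosophila 2.0 arrays. The authors filtered, quantile normalized and summarized the arrays by RMA and deposited log2 expression per probe set for 38 arrays, with versions not given in the sources used here. Of 18952 probe sets, 183 controls were left out, and 9420 with a mean log2 of at least 6 over the 36 arrays at 2 to 72 h were tested. Gene names came from the platform annotation and current RefSeq symbols. limma 3.58.1 in R 4.3.3 was run on 12 differences between arrays of the same hour, as the study paired them, with Benjamini-Hochberg adjustment over the 3 comparisons together at 0.05. The difference between late and early hours, between the 12 hours and a 24-hour wave were fitted by limma too, and tested on simulated data. Arrays at 0 h entered only an alternative. Array weights were estimated gene by gene, since the default estimate did not converge.

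The members and gene lists were chosen with earlier results of these data known. All member probe sets above the limit were named. Of each pathway list up to 5 genes called in at least 1 comparison were named, and for each called member the 3 genes with the highest r. Akh and AkhR were named outside this rule, without a call. The identifier CG5991, listed among neutral lipases but now named for a decarboxylase, and CG5608, listed wrongly for Agpat1, were left out after the results had been seen. Precision is limited by the number of arrays. Sequences of these genes were not used here.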

Additional observations from a re-analysis of the deposited data

Results flagged for a closer look

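The RF and CF arrays at 0 h stood outside the comparisons, which used 2 to 72 h. For 3 of the 9 probe sets the RF minus CF difference at 0 h lay outside the range of the 12 later ones, as it did for 22.1% of all probe sets tested. For mag it was -2.25, with 8.70 in RF and 10.95 in CF, and the 12 later differences ran from -1.29 to -0.0047. For Lip4 it was -0.51, with 9.58 in RF and 10.09 in CF, and the later differences ran from -0.36 to 0.55. For Jabba 1640505_at it was 0.27, with 9.84 in RF and 9.58 in CF, and the later differences ran from -0.18 to 0.21. The eggshell mean at 0 h was 5.72 in RF and 8.41 in CF, below every later array. With 1 array per cohort at 0 h these values have no replicate.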

How the results depend on the processing

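The members called were 2 in each comparison. Of RF versus CF 1 was left without the pairing by time (no replicate block), 1 by the methods' t-test after Benjamini-Hochberg and 1 without a filter, while array weights gave 4 and 2 to 18 h alone 0. Of SF versus CF 1 was left without the pairing, 1 by the t-test, 1 at 24 to 72 h alone, and 0 with centred arrays, with each comparison adjusted on its own or at 2 to 18 h alone. Of SF versus RF array weights gave 4, the t-test, no filter, centring and separate adjustment left 1, and early or late hours alone left 0. With 1 time point left out the range was 1 to 2 for RF versus CF, 0 to 2 for SF versus CF and 1 to 2 for SF versus RF.

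Over all probe sets RF versus CF gave 699 calls, against 338 without the pairing, 2801 with array weights, 17 at 2 to 18 h and 1723 at 24 to 72 h (497 to 816 with a time point left out). SF versus CF gave 170, against 108 without the pairing, 298 in a single fit, 810 with weights, 91 adjusted on its own, 0 at 2 to 18 h and 406 at 24 to 72 h (94 to 209). SF versus RF gave 184, against 310 in a single fit, 1871 with weights, 117 adjusted on its own, 342 with the eggshell covariate, 1 at 2 to 18 h and 489 at 24 to 72 h (121 to 259). Late against early SF minus CF gave 0 calls, and 1 without a filter or adjusted on its own (0 to 1).

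Time points called 4 members, or 2 with all 36 arrays (3 to 6), and 1736 probe sets, or 709 with the eggshell covariate and 322 with all 36 arrays (708 to 2873). The wave called 0 members, 2 with the eggshell covariate and 1 with all 36 arrays (0 to 2), and 119 probe sets, or 459 and 293 in these fits (77 to 933). Sign flips gave 11, or 10 to 13 with a time point left out.

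Directions turned only in member differences that were not called. In RF versus CF at 2 to 18 h Jabba 1640505_at was -0.011 and Mtp -0.068, and Lip4 was -0.046 with array weights and -0.016 with the 0 h pair. In SF versus CF bmm was 0.0019 with array weights and 0.026 at 24 to 72 h, Lip4 was 0.015 with the eggshell covariate, and at 2 to 18 h Jabba 1633076_at was 0.15, Lsd-2 0.023, Lip4 0.10 and mag 0.042. In SF versus RF at 2 to 18 h Lip4 was 0.066 and apolpp 0.029. Between late and early hours Lip4 in RF minus CF was 0.023 with centring, and with the eggshell covariate apolpp was -0.012 in RF minus CF and Jabba 1633076_at -0.033 in SF minus RF. With a time point left out, RF versus CF ran from -0.023 to 0.0603 for Lip4 and from -0.0028 to 0.054 for Mtp. SF versus CF ran from -0.091 to 0.042 for Jabba 1633076_at and from -0.099 to 0.018 for Lip4, and SF versus RF from -0.11 to 0.0204 for Lip4. Late minus early ran from -0.036 to 0.092 for bmm and from -0.12 to 0.059 for Lip4 in RF minus CF, and from -0.11 to 0.27 for Jabba 1633076_at and -0.18 to 0.055 for Mtp in SF minus RF. The causes were not tested.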
